A study of Mus musculus with 151 samples.

Results

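Growth differentiation factor 9 (Gdf9) and bone morphogenetic protein 15 (Bmp15) are the paired growth factors that an oocyte secretes toward its granulosa and cumulus cells, and Bmpr2, Bmpr1a, Bmpr1b and Tgfbr1 encode receptors that these factors or their close relatives use. These 6 genes were chosen by name, with no measured value in the rule, and all 6 had a row among the 35976 genes of each of 7 count tables. The tables held 143 RNA-seq libraries from the female offspring of 2 ways of conception in the mouse, mating (Natural) and in vitro fertilization (IVF), and every comparison was Natural against IVF within a table unless stated otherwise.

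Ovaries were taken at E18.5, late gestation (4 Natural, 6 IVF), at 12 weeks of age (4 and 5) and at 39 (5 and 5). Per the study's methods, RNA came from the whole gonad at E18.5 and from a part of each adult ovary. Primordial germ cells (PGCs) were taken at E13.5 in pools of 100 cells (4 and 5), single oocytes at 12 weeks (36 and 40) and 39 weeks (9 and 10), and cumulus cells at 12 weeks (5 and 5). All offspring came from CF-1 females and B6/SJL males, so every group is a hybrid background. In both adult groups the pups came from c-sections, done later for IVF than for Natural, and grew up with foster dams, and the oocytes and cumulus cells came from superovulated females, whose cumulus was removed with hyaluronidase. The IVF group thus differs from Natural by superovulation of the mother, fertilization and culture outside the body and embryo transfer together, and these steps cannot be told apart here. The study's methods name more than one collection day for IVF fetuses, so at E18.5 embryonic age and conception cannot be told apart either. The study's methods take the sequenced ovaries from separate animals of several litters. They allow littermates within the adult cohorts, and the labels name no litter. Adult ovaries of a group may therefore not be fully independent, as the tests take them to be. For PGC pools and cumulus libraries the labels do not name separate animals, and there p-values measure the spread between these samples, which may be technical.

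Both ligands belong to the TGF-beta superfamily. GDF9 signals through BMPR2 with TGFBR1 (ALK5) toward SMAD2 and SMAD3, and BMP15 through BMPR2 with BMPR1B (ALK6) toward SMAD1, SMAD5 and SMAD9, while BMPR1A (ALK3) serves several BMPs. In the ovary the pair is known for follicle growth past the primary stage, cumulus expansion, and the metabolic support that cumulus cells give the oocyte. Mice without Gdf9 arrest at primary follicles, and ewes carrying Bmpr1b mutations ovulate more oocytes.

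On the mouse build GRCm38 the ligand genes are short, Gdf9 lying at chr11:53431023-53437904 on the plus strand with 2.031 kb of exon and Bmp15 at chrX:6314107-6320721 on the minus strand with 3.06 kb. The receptors are longer. Bmpr2 lies at chr1:59763400-59879014 (plus strand) with 17.983 kb of exon, Bmpr1a at chr14:34410734-34503341 (minus strand) with 6.351 kb, Bmpr1b at chr3:141837136-142169425 (minus strand) with 5.962 kb and Tgfbr1 at chr4:47353222-47414931 (plus strand) with 6.534 kb. Bmpr1a overlaps an antisense gene, Gm17110, and Bmpr2 overlaps a gene on its own strand, Gm38125, so reads shared with Gm38125 cannot be assigned to either gene by strand in any library, and those of Gm17110 can be counted for Bmpr1a in the oocyte, cumulus and PGC libraries, which do not keep strand.

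The sequences before the start sites of Bmp15 and Bmpr1b are shown because these are the 2 members that rose from E18.5 to 12 weeks in ovaries of both groups, as described below. Each line holds the 250 bases before a RefSeq start site, 5′ to 3′ on the gene's own strand (GRCm38.p6), at chrX:6320725-6320974 for Bmp15 and at chr3:141982265-141982514 for 1 of the 3 start sites of Bmpr1b.
Bmp15: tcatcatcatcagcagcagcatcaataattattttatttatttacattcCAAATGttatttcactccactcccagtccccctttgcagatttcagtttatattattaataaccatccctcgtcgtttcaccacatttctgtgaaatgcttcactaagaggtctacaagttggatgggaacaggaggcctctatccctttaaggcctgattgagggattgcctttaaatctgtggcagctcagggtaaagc
Bmpr1b: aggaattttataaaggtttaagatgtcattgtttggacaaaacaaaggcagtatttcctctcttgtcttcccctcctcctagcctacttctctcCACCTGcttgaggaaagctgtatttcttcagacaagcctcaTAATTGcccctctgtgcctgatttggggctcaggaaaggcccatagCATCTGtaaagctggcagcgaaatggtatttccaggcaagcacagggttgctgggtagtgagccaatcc
Capitals mark CANNTG, the E-box of helix-loop-helix factors such as FIGLA, and TAATTG, a core bound by the homeobox factor NOBOX, both searched on either strand with no overlap between matches. An E-box stood 201 bases before the Bmp15 start, and E-boxes stood 156 and 69 bases before the Bmpr1b start. An E-box was present in 72.3% of the 32851 RefSeq windows of 300 bases and TAATTG in 8.0%, so an E-box is the usual state of such a window. The Bmpr1b window shown has the most matches of its 3 and the only TAATTG, and of the other 2 windows 1 held an E-box, 79 bases before the start, and 1 held none. Among the other members, 1 of the 2 windows of Tgfbr1 held an E-box, those of Bmpr2 and Bmpr1a held none in 300 bases, and no window was matched for Gdf9.

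Library totals ran from 6995713 to 14830788 counts in E18.5 ovaries, 2839022 to 43363799 at 12 weeks, 18079970 to 38751638 at 39 weeks, 4364495 to 8675189 in PGCs, 839781 to 10879166 in 12-week oocytes, 2820748 to 31126357 in 39-week oocytes and 2532824 to 6345249 in cumulus cells. Levels are CPM, counts relative to the library total, scaled within a table by TMM, and a gene was called changed at an adjusted p below 0.05 in edgeR's quasi-likelihood test over all genes tested. Several libraries stood apart or carried labels that disagree. Of the 76 oocytes at 12 weeks, 10 had a transcriptome far from the rest, with a median correlation of 0.511 to 0.691 with the other oocytes against at least 0.888 for the remaining 66, and at 39 weeks 2 of 19 did so. The 39-week oocyte of IVF replicate 7 was not among these but had the lowest total of its table. It had 23116 genes detected, against 10902 to 18228 in the other oocytes of that age, and it was kept. Donor sets of 12-week oocytes are read from the library names, and the labels do not say that a set is 1 animal. The cumulus library of Natural replicate 5 carries a name, 126_2, that is also the name of a donor set of IVF oocytes. The 39-week ovary of IVF replicate 1 had a summed level of 8117 CPM over 6 oviduct markers, against 37.9 to 198 CPM in the other 9. Natural 39-week ovary 5 is labelled with both 39 and 40 weeks, and the series' design text counts 4 Natural and 6 IVF ovaries at that age where the labels, which were followed, give 5 and 5.

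The labelled cell types carried their markers. All 15 markers of growing oocytes were detected in 12-week oocytes and all 9 granulosa markers in cumulus cells, where 12 of the 15 oocyte markers had a median below 1 CPM. The 9 granulosa markers were also detected in 12-week oocyte sets, at a sum of 58.5 to 88.9 CPM against 1045 to 2581 CPM in cumulus cells. Theca and interstitial markers summed to 33.7 to 225 CPM in these oocyte sets. The part of cumulus RNA in the oocyte values was not tested. In PGCs the 5 germ cell markers summed to 2197 to 7538 CPM and the 9 granulosa markers to 11.9 to 27.9 CPM, with Amh, Foxl2 and Fshr at 0 in every library. Endothelial markers summed to 73.5 to 453 CPM and oviduct (epithelial) markers to 144 to 363 CPM in the PGC libraries, and the part of other cells in the PGC values was not tested.

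Both ligands were far higher in oocytes than in cumulus cells, and the receptors divided between these cell types. In Natural mice at 12 weeks Gdf9 averaged 15563 CPM over the 5 donor sets of oocytes, 13177 to 17193 CPM, and 8.26 CPM over the 5 cumulus libraries, 0.223 to 18.6 CPM. For this comparison between tables, CPM was taken per library total without TMM. Bmp15 averaged 3647 CPM in the oocyte sets and 2.13 CPM in cumulus cells. On the log2 scale, with 0.1 CPM added, the oocytes were 12.21 higher for Gdf9 and 12.08 higher for Bmp15, each with an exact permutation p = 0.00794, the smallest that 5 against 5 can give, and an adjusted p of 0.00952 over the 6 members. The set names 35_3 and 92_5 each mark both a Natural oocyte set and a Natural cumulus library, so the 10 values may not be fully independent, as the test takes them to be.

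Bmpr1b, the type I receptor of the BMP15 route, was also higher in oocytes than in cumulus cells, at 209 ± 26.6 CPM in oocyte sets against 27.8 ± 6.83 CPM in cumulus cells (SD, n = 5 each, exact permutation p = 0.00794, adjusted 0.00952). Tgfbr1, the type I receptor of GDF9, had the reverse distribution, at 22.4 ± 6.78 CPM in oocyte sets against 323 ± 133 CPM in cumulus cells (SD, n = 5 each, exact permutation p = 0.00794, adjusted 0.00952), a log2 difference of -3.80. Bmpr1a was 0.94 lower in oocytes on the log2 scale, with the same exact permutation p, and Bmpr2, the type II receptor both ligands share, was nearly even, at 66.5 against 53.8 CPM (log2 difference 0.31, exact permutation p = 0.0159, adjusted 0.0159). With IVF samples in place of Natural, where 3 set names are shared, the Bmpr1a difference was -0.30 with an adjusted exact permutation p of 0.238, which misses the threshold, whereas the other 5 members kept an adjusted p below it. The tables were normalized separately, and oocyte and cumulus libraries were made from unequal amounts of RNA, so these are differences in share of a library.

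**Figure D1:**
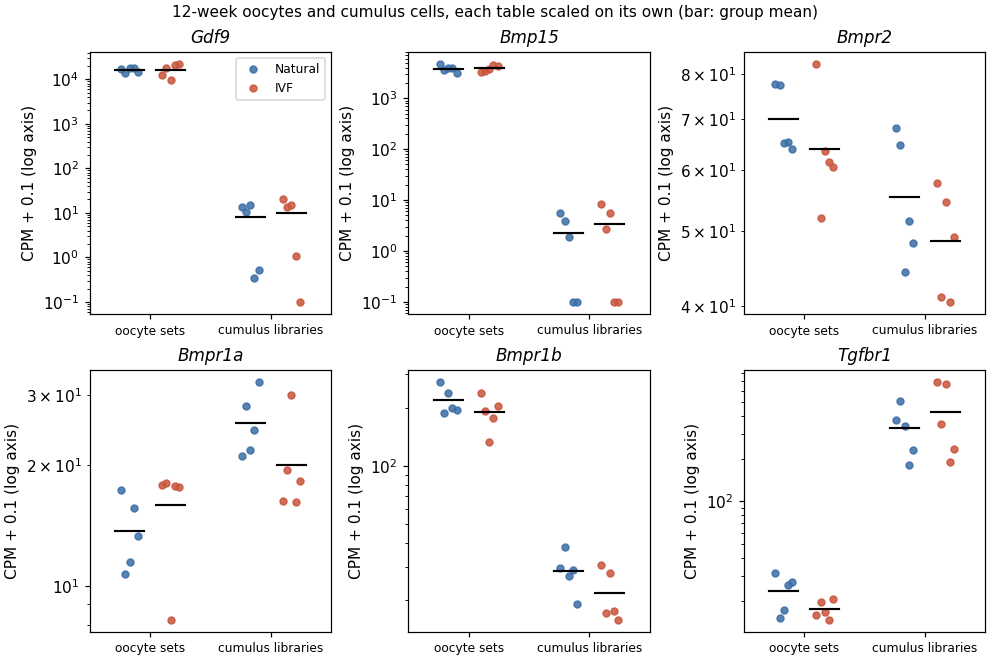
CPM plus 0.1 (log axes) of the 6 members in donor sets of 12-week oocytes and in 12-week cumulus libraries, Natural in blue and IVF in red, 1 point per set or library and a bar at each group mean. Gdf9, Bmp15 and Bmpr1b lie higher in oocytes and Tgfbr1 higher in cumulus cells, and Natural and IVF points overlap for each member in each cell type.

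Per kilobase of exon, Gdf9 stood at 7753 CPM in Natural 12-week oocytes and Bmp15 at 1268 CPM, and the receptors followed in the order Bmpr1b at 36.3, Bmpr2 at 4.15, Tgfbr1 at 3.52 and Bmpr1a at 2.15 CPM per kilobase. In cumulus cells of the Natural group the order per kilobase began with Tgfbr1 at 49.97, followed by Bmpr1b at 4.75, Bmpr1a at 4.01, Gdf9 at 3.90, Bmpr2 at 3.07 and Bmp15 at 0.717. In Natural ovaries of the same age Bmpr1b stood at 10.8 CPM per kilobase beside Gdf9 at 24.5. Except for Tgfbr1 in cumulus cells and both ligands and Bmpr1b in oocytes, neighbours in these orders lay close together, and their differences were not tested.

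Neither ligand differed between Natural and IVF oocytes at 12 weeks beyond the spread of the donor sets. Gdf9 was at 17341, 14018, 18023, 17593 and 14535 CPM in the Natural sets and at 12500, 18082, 9657, 20470 and 22293 CPM in the IVF sets. The IVF sets were the more variable, holding both the lowest values and the highest, and the groups overlapped (log2 fold change 0.03, SE 0.205, edgeR adjusted p = 0.992). Set names begin with 35 or 92 in Natural and with 126 or 127 in IVF, so this first field and conception cannot be told apart. The IVF sets beginning with 127 were at 20470 and 22293 CPM, and those beginning with 126 at 12500, 18082 and 9657 CPM. The labels do not say whether sets that share a first field are independent, as the test takes them to be. Bmp15 was at 3114 to 4741 CPM in Natural and 3278 to 4560 CPM in IVF sets (log2 fold change 0.01, edgeR adjusted p = 0.993). Their ratio, Gdf9 to Bmp15, was 4.29 ± 0.456 in Natural and 4.25 ± 1.07 in IVF (SD, n = 5 each, exact permutation p = 0.881).

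Among the receptors in the oocyte sets, Tgfbr1 had the widest difference, at 15.0 to 31.4 CPM in Natural and 14.6 to 20.6 CPM in IVF sets (log2 fold change -0.43, SE 0.210, edgeR adjusted p = 0.775). All 4 theca and interstitial markers tested here also had negative fold changes (median -0.58), and 3 of 5 granulosa markers had positive ones, with none called. The part of cumulus RNA in the receptor values of the oocyte sets was not tested. Bmpr1b was at 188 to 275 CPM in Natural and 133 to 241 CPM in IVF sets, Bmpr2 at 63.8 to 77.5 and 51.9 to 82.4 CPM, and Bmpr1a at 10.6 to 17.2 and 8.14 to 18.0 CPM. No member was called, where 0.0277% of the 14444 genes tested were.

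The 10 oocytes that stood apart at 12 weeks were nearly without Gdf9 but not without Bmp15. These oocytes were picked by their whole profile with the 6 members left out, a grouping made from the data, so their levels are a description with no test. Gdf9 lay at 109 to 477 CPM in them, with a median of 244 CPM, and at 9328 to 27614 CPM, with a median of 18706 CPM, in the other 66, a gap with no oocyte inside it. Bmp15 lay at 1278 to 5767 CPM, median 4185 CPM, and at 2647 to 6204 CPM, median 3941 CPM. The ratio of the ligands was therefore 0.0308 to 0.163 in the oocytes apart and 2.62 to 6.58 in the rest.

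The receptors of the apart oocytes divided in the same way. Bmpr1b was at 46.7 to 110 CPM against 133 to 348 CPM, without overlap, and Bmpr1a at 0 to 5.60 CPM against 5.03 to 32.1 CPM. Bmpr2 had medians of 64.1 and 67.9 CPM, and Tgfbr1 of 7.04 and 17.0 CPM. Of the other oocyte genes, H1foo, the linker histone of the oocyte, had medians of 121 and 18204 CPM, and Zar1, a maternal RNA-binding protein, and Mos, the kinase that holds the egg in metaphase, were low in the same oocytes, at 16.4 against 2458 CPM and 3.55 against 1307 CPM. Zp2, an egg coat protein, had medians of 90.4 and 86.9 CPM, and Npm2, a nuclear chaperone, of 87.2 and 99.8 CPM. The median total was 1962426 counts in the apart oocytes and 5872339 in the rest. The apart oocytes ran from 839781 to 4991194 counts and the rest from 2591803 to 10879166. At 39 weeks the median total was 15325158 counts in the 2 apart oocytes and 16971572 in the rest. The part of depth and RNA quality in this pattern was not tested.

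Both groups held such oocytes, 4 of 36 Natural (11.1%) and 6 of 40 IVF (15.0%) at 12 weeks, and they came from 5 of the 10 donor sets. Set 126_4 of IVF held 4 of its 8, which is the set with the lowest Gdf9 above, at 9657 CPM. Without the apart oocytes its Gdf9 was 17332 CPM, the IVF sets ran from 12032 to 22967 CPM against 15026 to 18387 CPM in Natural, and the log2 fold change was 0.10 (SE 0.149, edgeR adjusted p = 0.945). Across the 6 members the lowest edgeR adjusted p without them was 0.754, for Tgfbr1.

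**Figure D2:**
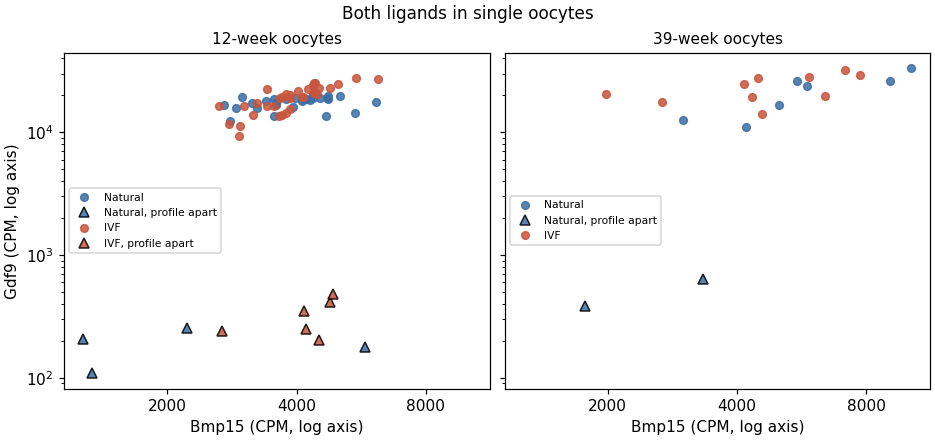
Gdf9 against Bmp15 CPM in each single oocyte at 12 and 39 weeks (log axes), Natural in blue and IVF in red, with triangles for the oocytes whose whole profile stands apart. The triangles lie at 643 CPM of Gdf9 or below at both ages, the circles at 9328 CPM or above, and Bmp15 overlaps between them at both ages.

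At 39 weeks the library names hold no donor sets, so each group counts as 1 sample and has no test. Gdf9 ran from 386 to 33317 CPM over 9 Natural oocytes, median 16816 CPM, and from 14114 to 31992 CPM over 10 IVF oocytes, median 22644 CPM. The low end of Natural was the 2 apart oocytes, at 386 and 643 CPM, and without them the log2 ratio of the means, IVF over Natural, went from 0.48 to 0.13. Bmp15 had medians of 5007 CPM in Natural and 4518 CPM in IVF oocytes (log2 ratio of means -0.11). The receptor ratios were 0.01 for Bmpr2, 0.19 for Bmpr1a, 0.23 for Bmpr1b and -0.23 for Tgfbr1, and no member reached a fold of 2, where 11.3% of 7755 genes did.

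In cumulus cells, the side that receives the ligands, no receptor was called (edgeR with the naming set of the libraries as a covariate, 0.00973% of 10280 genes called). Tgfbr1 was at 510, 341 and 372 CPM in the Natural replicates 3, 4 and 5 and at 181 and 229 CPM in the 2 further Natural libraries, and at 697, 352 and 675 CPM in IVF replicates 1, 2 and 3 and at 190 and 236 CPM in the 2 further IVF libraries. The values split by library set rather than by conception, and the fold change between conceptions was 0.32 on the log2 scale (SE 0.204, edgeR adjusted p = 0.874). Bmpr1b was at 19.1 to 37.6 CPM in Natural and 15.7 to 30.6 CPM in IVF libraries (log2 fold change -0.41, SE 0.202, edgeR adjusted p = 0.844). As a ratio to the summed granulosa markers of each library, Bmpr1b differed by -0.65 on the log2 scale, IVF minus Natural (n = 5 each, exact permutation p = 0.0159, adjusted 0.0847 over 16 such ratios), which misses the threshold. Bmpr1a was at 21.0 to 32.3 CPM in Natural and 16.1 to 30.0 CPM in IVF, and Bmpr2 at 44.2 to 68.1 and 40.4 to 57.7 CPM.

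The cumulus library with the name of an IVF oocyte set did not decide these values. Leaving out libraries in turn, Natural replicate 5 among them, kept the Bmpr1b fold change between -0.51 and -0.29 and that of Tgfbr1 between 0.21 and 0.44, and treating that library as IVF left every member with an edgeR adjusted p above the threshold.

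The set split itself was large, with 24% of 10280 genes called between the 6 libraries named like a donor set (donor-named) and the 4 named by group, a fit added after the values were seen. Tgfbr1 was at 341 to 697 CPM in the former and 181 to 236 CPM in the latter (log2 fold change 1.21, edgeR adjusted p = 0.000676). Gdf9 was at 10.5 to 20.4 CPM against 0 to 0.985 CPM, and Bmp15 at 1.76 to 8.45 CPM against 0 in all 4 libraries. The other oocyte RNAs moved with them, since the 15 markers of growing oocytes summed to 23.1 to 64.1 CPM in the donor-named libraries and 1.72 to 2.90 CPM in the others. Gdf9 stood at 0.278 to 0.528 of that marker sum in the 6 donor-named libraries, and at 0.482 ± 0.0198 of it in the Natural oocyte sets (SD, n = 5). The part of oocyte RNA in these ligand levels was not tested.

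At E18.5, when oocytes enter primordial follicles, Gdf9 was lower in IVF ovaries. It was at 17.9, 27.8, 7.58 and 57.2 CPM in the 4 Natural ovaries and at 9.28, 2.07, 6.66, 4.01, 10.4 and 5.38 CPM in the 6 IVF ovaries. Natural replicate 3 lay inside the IVF range and the other 3 lay above all of it. The log2 fold change was -2.14 (SE 0.483, edgeR adjusted p = 0.0256), and Gdf9 was the 1 member called, where 2.75% of 16415 genes were called lower and 2.67% higher. The call was lost when Natural replicate 2, Natural replicate 4, IVF replicate 4 or IVF replicate 6 was left out (edgeR adjusted p = 0.0605, 0.0821, 0.0568 and 0.0554), and without Natural replicate 4 the log2 fold change was -1.50.

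Bmp15 was near its floor at this age, with 0 to 56 counts per ovary. It was at 0.999, 1.27, 1.60 and 3.79 CPM in Natural and at 1.17, 0, 0.166, 0.601, 0.841 and 0.861 CPM in IVF ovaries, so 5 of the 6 IVF ovaries lay below every Natural one. Its log2 fold change was -1.67 (SE 0.649, edgeR adjusted p = 0.139). The Gdf9 to Bmp15 ratio did not differ detectably at this depth (log2 difference -0.19, exact permutation p = 0.771).

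The oocyte RNAs around Gdf9 moved the same way at E18.5. Of the 15 markers of growing oocytes, 14 were tested, and Zp1, Zp3, Ooep, Nlrp14 and Padi6, which encode egg coat and maternal complex proteins, were called lower and none higher, with a median log2 fold change of -2.12 against 0.00 over all genes tested. The marker sum was 323 to 1088 CPM in the Natural group and 113 to 501 CPM in the IVF group. Markers of germ cells at all stages summed to 197 to 664 CPM and 201 to 445 CPM, with none of 5 called. In a whole ovary, fewer cells of a type and less RNA per cell cannot be told apart. Erythroid markers also moved with the group, at 599 to 1600 CPM in the Natural group and 1601 to 4582 CPM in the IVF group, with 2 of 6 called higher. Of the theca and interstitial markers 2 of 5 tested were called higher (Cyp17a1 and Star, of steroid synthesis), of the luteal markers 1 of 4 higher (Lhcgr) and of the endothelial markers 1 of 4 lower (Pecam1), with summed levels that overlapped between the groups. The part of these cell types in the Gdf9 result was not tested.

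The ratio of Gdf9 to the sum of the oocyte markers was lower in IVF ovaries, by 0.85 on the log2 scale. The ratio was 0.0360 ± 0.0139 in Natural (SD, n = 4) and 0.0192 ± 0.00379 in IVF (SD, n = 6), with every IVF ovary below every Natural one. The two-sided exact permutation p was 0.00952, the smallest that 4 against 6 can give, and 0.0762 after adjustment over 8 such ratios, which misses the threshold. With the mean of the markers' log2 values in place of their sum the difference turned to 0.13, so the sign depends on how the markers are combined. A sum follows the markers with the most RNA. The fold changes of the 14 markers tested ran from -3.14 to -0.10 on the log2 scale. Their median, -2.12, was close to the -2.14 of Gdf9, so the ratio to the sum does not show that Gdf9 fell further than the usual marker.

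**Figure D3:**
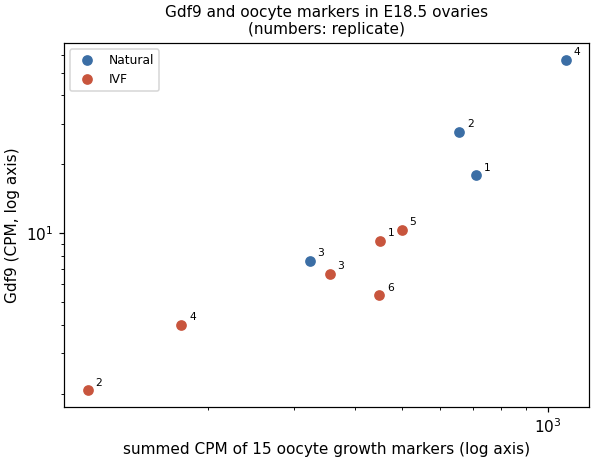
Gdf9 CPM against the summed CPM of 15 markers of growing oocytes in the 10 E18.5 ovaries (log axes), Natural in blue and IVF in red, numbered by replicate. Natural replicates 1, 2 and 4 lie at the upper right, and Natural replicate 3, at 7.58 CPM, lies among the IVF ovaries.

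The receptors at E18.5 were not called, and 2 ovaries set their spread. Bmpr2 was at 220, 105, 107 and 92.2 CPM in Natural and at 169, 205, 95.9, 181, 178 and 167 CPM in IVF ovaries. Natural replicate 1 lay above all IVF ovaries and IVF replicate 3 lay with the other 3 Natural ones. Bmpr1a followed the same arrangement, at 258, 153, 148 and 137 CPM in Natural and 203, 238, 130, 206, 202 and 196 CPM in IVF. Tgfbr1 was at 154, 103, 97.6 and 96.2 CPM in Natural and 157, 173, 96.2, 160, 160 and 148 CPM in IVF.

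The log2 fold changes were 0.34 for Bmpr2 (SE 0.247, edgeR adjusted p = 0.422), 0.17 for Bmpr1a (SE 0.191, edgeR adjusted p = 0.627), 0.40 for Tgfbr1 (SE 0.173, edgeR adjusted p = 0.175) and 0.02 for Bmpr1b, which was at 11.5 to 35.8 CPM in the Natural group and 17.5 to 27.5 CPM in the IVF group (SE 0.254, edgeR adjusted p = 0.974). Without Natural replicate 1, Bmpr2 rose by 0.71 and Tgfbr1 by 0.59 on the log2 scale and both were called (edgeR adjusted p = 0.0329 and 0.0323).

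In ovaries of 12 weeks no member was called, where 0.00567% of 17628 genes were, and all 6 fold changes were positive. Bmpr2 came nearest, at 181, 154, 187 and 219 CPM in Natural and at 209, 271, 276, 363 and 307 CPM in IVF ovaries. Only IVF replicate 1 lay within the Natural range, and the log2 fold change was 0.62 (SE 0.159, edgeR adjusted p = 0.166). DESeq2 gave 0.60 with an adjusted p of 0.0299. As a ratio to the summed granulosa markers, Bmpr2 differed by -0.13 on the log2 scale, IVF minus Natural (exact permutation p = 0.651). The ratios of Bmpr1a, Tgfbr1 and Bmpr1b differed by -0.63, -0.43 and -0.40 (exact permutation p = 0.127, 0.175 and 0.111). No ratio passed, with adjusted exact permutation p of 0.270 to 0.801 over 16 ratios.

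Gdf9 was at 33.2, 69.0, 35.8 and 61.4 CPM in Natural and at 42.2, 60.5, 98.6, 90.6 and 59.3 CPM in IVF ovaries of this age (log2 fold change 0.49, SE 0.295, edgeR adjusted p = 0.466). Bmp15 was at 14.3 to 25.7 CPM in Natural and 17.7 to 42.6 CPM in IVF (log2 fold change 0.65, SE 0.277, edgeR adjusted p = 0.323). The low Gdf9 of IVF ovaries at E18.5 was thus not seen at 12 weeks. Markers of growing oocytes moved in the same direction as both ligands, with all 15 fold changes positive and none called. Their median was 0.42 on the log2 scale, against 0.01 over all genes tested. As a ratio to their sum, Gdf9 differed by 0.05 and Bmp15 by 0.18, IVF minus Natural (exact permutation p = 0.365 and 0.159, adjusted 0.726 and 0.635 over 8 ratios). Tgfbr1 at 80.5 to 111 and 101 to 135 CPM, Bmpr1a at 127 to 147 and 129 to 168 CPM, and Bmpr1b at 37.5 to 79.0 and 58.3 to 121 CPM overlapped between the groups. Marker sums differed beside them, since 6 oviduct markers summed to 3198 to 7308 CPM in the Natural group and 64.7 to 2934 CPM in the IVF group, and 9 granulosa markers to 1619 to 2567 and 2111 to 4865 CPM, and their part in these values was not tested.

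**Figure D4:**
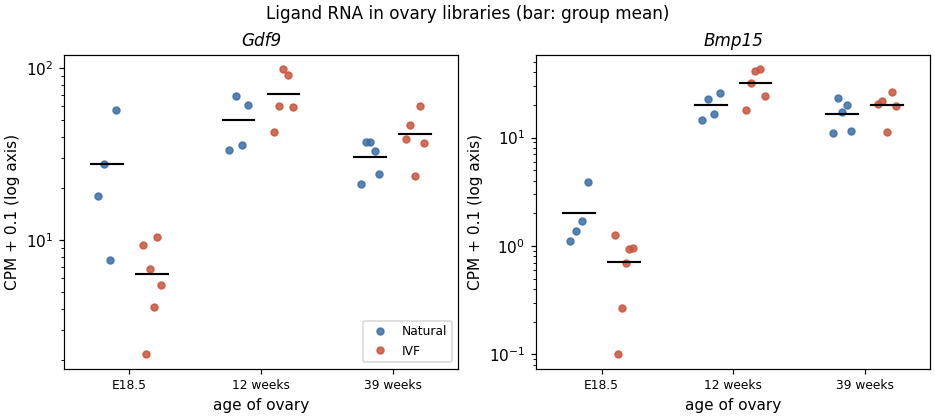
CPM plus 0.1 (log axes) of Gdf9 and Bmp15 in each ovary, by age, Natural in blue and IVF in red, with a bar at each group mean. The IVF ovaries lie low for both ligands at E18.5, and the groups overlap at both later ages.

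The change in the IVF effect between ages was tested in 1 model of all 29 ovaries. From E18.5 to 12 weeks the effect on Gdf9 shifted by 2.65 on the log2 scale (SE 0.581, edgeR adjusted p = 0.0492), where 0.314% of 19724 genes were called, and that on Bmp15 by 2.36 (SE 0.632, edgeR adjusted p = 0.0972). The Gdf9 call lay at the threshold and was lost in 21 of the 29 fits with 1 ovary left out, with an edgeR adjusted p of up to 0.156 without Natural replicate 4 at E18.5. The receptors' shifts from E18.5 to 12 weeks lay between -0.06 and 0.35. From 12 to 39 weeks no member's shift was called, where 2.71% of genes were called, and the widest shift was that of Bmpr1b (0.75, SE 0.405, edgeR adjusted p = 0.306).

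In ovaries of 39 weeks Bmpr1b was higher in every IVF ovary than in any Natural one. It was at 15.0, 24.4, 46.5, 31.0 and 41.0 CPM in Natural and at 62.8, 70.7, 48.4, 80.6 and 70.3 CPM in IVF ovaries, with the nearest pair at 46.5 and 48.4 CPM. The log2 fold change was 1.08 (SE 0.270) and the edgeR adjusted p was 0.0985 and no member was called, where 0.262% of 17186 genes were. DESeq2 called it, with an adjusted p of 0.00585. Bmpr1b was the 1 member whose groups did not overlap, and 2.27% of all genes tested lay entirely higher in IVF in that way. Without IVF replicate 1, whose oviduct markers stood out, the log2 fold change was 1.09, and without Natural replicate 5 it was 1.19.

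Granulosa markers moved in the same direction as Bmpr1b at 39 weeks, with none of 9 called. Their sum was 865 to 2525 CPM in the Natural group and 1640 to 4200 CPM in the IVF group, and all 9 fold changes were positive, with a median of 0.96 on the log2 scale against 0.03 over all genes tested. As a ratio to that sum, Bmpr1b was at 0.0173 ± 0.00206 in Natural and 0.0218 ± 0.00956 in IVF (SD, n = 5 each, exact permutation p = 0.421). The ratios of Bmpr2, Tgfbr1 and Bmpr1a were lower in IVF by 0.61, 0.74 and 1.01 on the log2 scale, with exact permutation p of 0.00794, 0.0159 and 0.0317 and adjusted values of 0.0847, 0.0847 and 0.127 over 16 ratios, so none passed. Theca and interstitial markers summed to 17022 to 27597 CPM in Natural and 9809 to 20538 CPM in IVF, and luteal markers to 3046 to 7023 and 1152 to 5814 CPM. Of the 15 markers of growing oocytes 12 had positive fold changes, with a median of 0.30 over the 15. None of these markers was called, and the part of these cell types in the receptor values was not tested.

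The other members overlapped at 39 weeks. Gdf9 was at 21.2 to 37.2 CPM in Natural and 23.5 to 60.3 CPM in IVF (log2 fold change 0.43, edgeR adjusted p = 0.348), Bmp15 at 10.8 to 22.9 and 11.3 to 26.0 CPM (0.26, edgeR adjusted p = 0.604), Bmpr2 at 173 to 414 and 162 to 469 CPM (0.32, edgeR adjusted p = 0.582), Tgfbr1 at 98.7 to 197 and 98.5 to 246 CPM (0.18, edgeR adjusted p = 0.717) and Bmpr1a at 156 to 180 and 147 to 172 CPM (-0.09, edgeR adjusted p = 0.529).

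**Figure D5:**
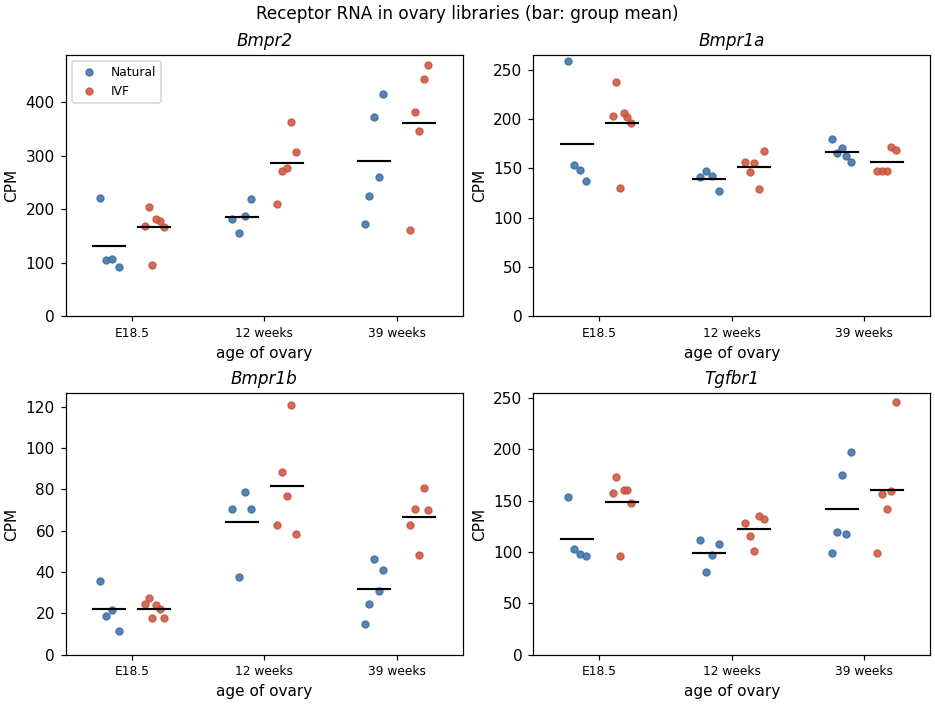
CPM of the 4 receptors in each ovary, by age, Natural in blue and IVF in red, with a bar at each group mean. Bmpr1b at 39 weeks is the panel and age where the groups separate, with Natural at 15.0 to 46.5 CPM and IVF at 48.4 to 80.6 CPM, and 1 ovary of each group lies apart for the other receptors at E18.5.

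With age, Bmp15 and Bmpr1b rose in ovaries of both groups from E18.5 to 12 weeks. In the same model Bmp15 rose by 3.44 in Natural and 5.80 in IVF on the log2 scale, and Bmpr1b by 1.63 and 1.97, each with an edgeR adjusted p of 0.000165 or below. Over this span 49.7% of genes were called in Natural and 59% in IVF. Gdf9 rose by 3.59 in IVF (edgeR adjusted p = 2.9e-08), and by 0.94 in Natural, where it missed the threshold (edgeR adjusted p = 0.0715). Bmpr2 rose by 0.88 in IVF (edgeR adjusted p = 0.00554) and was 0.56 higher in Natural (edgeR adjusted p = 0.135).

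From 12 to 39 weeks Bmpr1b fell by 0.91 and Tgfbr1 rose by 0.64 on the log2 scale in Natural ovaries (edgeR adjusted p = 0.0281 and 0.0434), where 21.6% of genes were called. In IVF ovaries Bmpr1b was 0.15 lower (edgeR adjusted p = 0.819) and Tgfbr1 0.52 higher (edgeR adjusted p = 0.143), where 6.19% of genes were called, and the difference between the groups was that tested above, with no call. Each age was sequenced as its own table, and age and table cannot be told apart. The use of whole gonads at E18.5 and of parts of adult ovaries cannot be told apart from age either.

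In PGCs the ligands and Bmpr1b were too low to be tested. Gdf9 had 0 to 7 counts, Bmp15 0 to 8 and Bmpr1b 0 to 8 counts per library. Bmpr1a was at 59.9 to 117 CPM in Natural and 63.3 to 134 CPM in IVF libraries and Tgfbr1 at 53.4 to 132 and 53.6 to 108 CPM, and Bmpr2 at 5.00 to 15.9 and 2.37 to 12.1 CPM. No member was called and 0% of 12763 genes were, with 349 genes at an unadjusted p below 0.05 in edgeR and 0 called by DESeq2.

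Most other genes of the pathway had no called difference. Of 13 other ligands, 9 other receptors, 8 SMAD genes, 10 antagonists, 4 convertases of the furin family, 17 cumulus genes known to be raised and 3 known to be held down by oocyte factors, and 9 transcription regulators of the oocyte, 2 genes were called higher and 1 lower at E18.5, and none in the other 5 tested tables. The 3 are 4.23% of the 71 tested at E18.5, a share near the 5.43% called over all genes, and they are given as values only. At E18.5 Bmp2, a BMP ligand, averaged 18.4 ± 4.62 CPM over Natural and 34.0 ± 9.22 CPM over IVF ovaries (SD, n = 4 against 6, log2 fold change 0.89, edgeR adjusted p = 0.0379). Ldha, a glycolytic enzyme that oocyte factors raise in cumulus cells, was at 491 ± 122 and 305 ± 62.3 CPM (log2 fold change -0.68, edgeR adjusted p = 0.0379). Lhcgr, the luteinizing hormone receptor, was at 0.430 ± 0.167 and 2.24 ± 1.24 CPM (log2 fold change 2.33, edgeR adjusted p = 0.0241), at most 43 counts in a library. The lists' medians lay between -0.41 and 0.88 at E18.5, against 0.00 over all genes tested.

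The genes with levels most like those of the members were ranked by correlation, as a description. Over the 14 group means of the 7 tables, which share libraries only within a table, the closest 5 to Gdf9 by Pearson's r of log2(mean CPM + 1) were H1foo, Oas1e, C86187, Btg4 and Slc45a3 (r = 0.995 to 0.997), and those to Bmp15 were Zar1, Bcl2l10, Gm13084, Oog4 and Nlrp4a (r = 0.995 to 0.997). For Bmpr1b they were Steap2, Eps8, Cd36, Slco3a1 and Abcc3 (r = 0.938 to 0.962). Of the 14 points, 4 are oocyte groups, which hold the highest levels of both ligands. Over the 10 E18.5 ovaries, which share a table and the difference between the groups, the closest to Gdf9 were Pou5f1, Tmem14c, Aldh9a1, Oas1d and Oas1c (r = 0.969 to 0.982), and the closest to Bmp15 were Srp9, Sp100, Orai3, Gm561 and Fen1 (r = 0.925 to 0.960).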

How the data were processed

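RNA-seq of ovaries, PGC pools, single oocytes and cumulus cells was used as 7 tables of read counts per gene that the authors deposited as raw counts. Per the labels and the submitters' processing notes, reads were trimmed with Trimmomatic 0.32, aligned to mm10 with STAR 2.3.0e and counted with featureCounts 1.5.0, and replicates were not pooled. Ovary libraries used a stranded mRNA kit and the other libraries SMART-Seq with Nextera XT, which keeps no strand. DESeq2 is also named in the notes. No column was left unused, with 0 such columns. The 39-week cumulus libraries were not analysed here.

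Genes with low counts were removed by filterByExpr, and each table was fitted with edgeR 4.0.16 in R 4.3.3 (TMM, quasi-likelihood test, two-sided, Benjamini-Hochberg adjustment over all genes tested, threshold 0.05). SE is the absolute log2 fold change over the square root of F. The cumulus fit had the naming set of the libraries as a covariate. For 12-week oocytes the counts were summed per donor set, read from the library name without its last field, giving 5 sets a group. The labels do not name donors, so what a set stands for is inferred from the names. The 39-week oocytes, with no donor sets in their names, were compared by group means, without a test, among genes with a mean of at least 5 CPM. An oocyte stood apart when its median correlation with the others was below 0.75. Ratios used log2 CPM with 0.1 CPM added and exact two-sided permutation tests (SciPy 1.17.1). DESeq2 1.42.0, limma 3.58.1, other size factors, other filters, pseudocounts, a replicate block and leaving out each replicate were alternatives.

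The members and gene lists were chosen with earlier results of these data known. Named were the 6 members, each gene of the 8 pathway lists past the threshold (up to 4 per list), and the 5 genes closest to a member by Pearson's r. The marker genes named at E18.5 and in the apart oocytes were chosen after their values were seen. The fits tested on simulated data recovered 99 to 100 of 100 genes changed 4-fold and 32 to 46 of 100 changed 2-fold. The simulation changed only genes above a minimum mean count and gave every gene the same dispersion, so these shares do not carry over to genes with few counts or a wider spread. Same-numbered replicates were not treated as pairs: their deviations correlated from -0.43 to 0.59 over the ovary and PGC tables, and no table had every pair above 0.1. Natural replicates 1, 2 and 4 of PGCs, 1, 2 and 5 of 39-week ovaries and 1 of 12-week ovaries did correlate best with the IVF replicate of their own number. Whether some of these samples share a batch was not tested. Sequences are from RefSeq on GRCm38.p6, and gene positions from GENCODE on GRCm38.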

Additional observations from a re-analysis of the deposited data

Results flagged for a closer look

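Of 83 groups of 4 to 10 samples, 10 held a member value set far from the rest by Dixon's ratio at its 95% critical value, and chance alone marks about 1 group in 20. In E18.5 ovaries Natural replicate 1 was the highest of its group for Bmpr2 (220 CPM, others 92.2 to 107), Bmpr1a (258 CPM, others 137 to 153) and Tgfbr1 (154 CPM, others 96.2 to 103). IVF replicate 3 was the lowest of its group for Bmpr2 (95.9 CPM, others 167 to 205) and Tgfbr1 (96.2 CPM, others 148 to 173). Their Gdf9, at 17.9 and 6.66 CPM, did not stand out in this way.

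In PGCs Natural replicate 4 had Gdf9 at 1.32 CPM where the other 3 were at 0, and Natural replicate 2 had Tgfbr1 at 132 CPM where the others were at 53.4 to 63.6 CPM. Bmpr1a stood out in 12-week oocyte set 126_4 of IVF (8.14 CPM, others 17.6 to 18.0), in cumulus IVF replicate 3 (30.0 CPM, others 16.1 to 19.3) and in 39-week Natural oocyte replicate 5 (21.0 CPM, others 0 to 10.5). Set 126_4 is the one with 4 of 8 oocytes apart.

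The effect of IVF on Gdf9 in ovary differed between 12 weeks and E18.5 by 2.65 on the log2 scale in the test of the difference itself (edgeR adjusted p = 0.0492, range over alternatives up to 0.156).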

How the results depend on the processing

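Most member results kept their direction and their side of the threshold, the exceptions being those given here, and the cause of each change was not tested unless a smaller sample makes it plain. The number of genes called depended strongly on the tool, and DESeq2 called 1856, 633 and 1128 genes in ovaries at E18.5, 12 and 39 weeks, 55 in 12-week oocytes and 31 in cumulus cells, against 891, 1, 45, 4 and 1 by edgeR. DESeq2 also called Bmpr2 at 12 weeks and Bmpr1b at 39 weeks, and no other member that edgeR did not. Without the filter on low counts edgeR called 9 genes in 12-week and 28 in 39-week ovaries, 19 in oocytes and 104 in cumulus cells, and with at least 10 counts in every library 0, 96 and 2 in 12-week ovaries, 39-week ovaries and cumulus cells. In cumulus cells the count was 0 without the naming set in the model, 8 with the library named 126_2 treated as IVF, 2 within the donor-named libraries, 2 within them without Natural replicate 5 and 639 within the 4 group-named libraries, and no member was called in any of these.

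With the replicate number as a block, the replicate block, 0 genes were called in 12-week, 24 in 39-week and 3 in E18.5 ovaries, and Gdf9 at E18.5 had a log2 fold change of -2.13 with an edgeR adjusted p of 0.220. In no table did every replicate correlate best with its own number, though some did, most often in PGCs and 39-week ovaries. No paired analysis was possible for oocytes and cumulus cells because the oocyte sets carry set names in place of replicate numbers and the numbered cumulus libraries of the groups share fewer than 2 numbers.

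The shift of the IVF effect on Gdf9 between E18.5 and 12 weeks was 2.63 with DESeq2's size factors (29 genes called) and 2.64 with those 2 ages alone in the fit (1 gene called), both above the threshold, with edgeR adjusted p of 0.0564 and 0.102. From 12 to 39 weeks the fit of 2 ages called 3 genes. The near-zero fold changes of 12-week oocytes turned sign, Gdf9 at -0.013 with limma on mean CPM, and Bmp15 at -0.0081 with DESeq2, -0.0069 with its size factors, -0.0040 without the filter, -0.0015 with counts summed by name prefix and -0.022 without the apart oocytes, where the ligand ratio was 0.091. With the mean of the markers' log2 values the ratio to markers was 0.13 for Gdf9 and 0.32 for Bmp15 at E18.5, -0.096 and -0.046 in 12-week oocytes, 0.18 for Bmpr1b at E18.5 and 0.029 for Bmpr2 at 12 weeks. Bmp15 to markers was 0.26 at E18.5 with 1 CPM added, and 0.31 at 39 weeks against germ cell markers. Bmpr1a in oocytes against cumulus cells was -0.30 in IVF samples.

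Leaving out 1 replicate at a time, the genes called ran from 313 (without Natural replicate 2) to 1973 (without Natural replicate 1) at E18.5, 1 to 5 at 12 weeks, 0 (without Natural replicate 5) to 123 (without IVF replicate 1) at 39 weeks, 1 to 8 in oocytes and 1 to 5 in cumulus cells. They ran from 0 (without 12-week IVF replicate 3) to 96 (without E18.5 Natural replicate 3) for the shift between E18.5 and 12 weeks and from 80 (without 12-week Natural replicate 3) to 1111 (without 39-week IVF replicate 5) for that between 12 and 39 weeks. The log2 fold change of Gdf9 at E18.5 ran from -2.46 to -1.50 and its shift to 12 weeks from 2.03 to 2.96. Small values crossed 0, with Bmpr1b at E18.5 from -0.20 to 0.37, Tgfbr1 at 39 weeks from -0.026 to 0.33, and in 12-week oocytes Gdf9 from -0.10 to 0.16 and Bmp15 from -0.072 to 0.10. So did the shifts from E18.5 to 12 weeks of Bmpr2 (-0.10 to 0.46), Bmpr1a (-0.31 to 0.099), Bmpr1b (-0.052 to 0.56) and Tgfbr1 (-0.29 to 0.015), and those from 12 to 39 weeks of Gdf9 (-0.25 to 0.10) and Tgfbr1 (-0.33 to 0.027). The Gdf9 to Bmp15 ratio ran from -0.67 to 0.056 at E18.5 and from -0.13 to 0.11 in oocytes. Ratios to oocyte markers ran from -0.047 to 0.12 for Gdf9 and -0.17 to 0.0045 for Bmp15 at 39 weeks, and from -0.036 to 0.19 for Bmp15 in oocytes. Ratios to granulosa markers at E18.5 ran from -0.021 to 0.56 for Bmpr2, -0.18 to 0.28 for Bmpr1a and -0.43 to 0.27 for Bmpr1b, and that of Tgfbr1 in cumulus cells from -0.14 to 0.28.

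Depth limits Bmp15 at E18.5 and the ligands and Bmpr1b in PGCs, whose counts are few. For genes with more counts, 32 to 46 of 100 changed 2-fold were recovered on simulated data with these library sizes, so a difference of that size can be missed. Genes with few counts were not among those changed, and every gene had the same dispersion. The simulation therefore does not measure what can be missed for Bmp15 at E18.5 or for the ligands and Bmpr1b in PGCs.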
